A study of Mus musculus with 9 samples.

Results

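Among libraries of sorted mouse hepatic stellate cells, 3 carried far more proliferation transcripts than 4 others, and these 7 of the 9 libraries in the series are compared here. The cycling-high side held LYT004 and LYT005, labelled control, and LYT008, labelled YAP-deleted. The cycling-low side held LYT015 and LYT017, labelled control, and LYT006 and LYT016, labelled YAP-deleted. The members were chosen by their own expression of cell cycle genes, with Mki67 and Top2a as markers, so every difference between the sides is a description and none was tested. The remaining 2 libraries, LYT013 labelled YAP-deleted and LYT014 labelled control, were left out because their Yap1 level went against the label.

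All groups came from mice with floxed Yap1 alleles on a C57BL/6J background that had been given the liver toxin carbon tetrachloride (CCl4) 6 times, 3 days apart. Control mice carried no Cre. YAP-deleted mice carried Cre driven in stellate cells by the promoter of Lrat, so that loss of Yap1 and presence of Cre cannot be told apart. Stellate cells were obtained 2 days after the last injection by density centrifugation and by sorting on retinoid autofluorescence, and were lysed without culture. The labels give neither age nor sex, nor whether libraries stem from separate mice, so p-values reflect the scatter among these libraries alone, which may be partly technical.

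Hepatic stellate cells are pericytes of the liver sinusoid that store vitamin A. After injury they can leave quiescence, enter the cell cycle and become myofibroblasts that contract and deposit fibrillar collagen. Genes of the late cell cycle are held down in resting cells by the DREAM complex, which binds the cell cycle homology region (CHR) of their promoters, and are switched on by B-MYB and FOXM1, often together with NF-Y at CCAAT boxes. Genes needed for DNA synthesis are switched on earlier, by E2F factors.

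Library totals, recovered by inverting the deposited scale, were 14575281 to 16954300 on the cycling-high side and 14052502 to 22917865 on the cycling-low side. Depth therefore overlapped between the sides. Normalised counts below are recovered counts after scaling each library by its size factor. Values are listed in the order LYT004, LYT005, LYT008 for the cycling-high side and LYT006, LYT015, LYT016, LYT017 for the cycling-low side. The deposited scale is log2-like but flattens towards its lowest value of 4.96, so it understates differences of genes with few counts. Library codes 4 to 8 held all 3 cycling-high libraries and 1 cycling-low library, and codes 15 to 17 held only cycling-low ones. Whether the codes mark a batch is not stated, and the extraction protocol describes both a poly-A and a ribosomal depletion preparation without saying which library received which.

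The promoters of 5 genes on which the description turns are shown first, each from 250 bases before to 30 bases after the RefSeq start site on GRCm38.p6. Mki67 and Top2a marked the split. Prr11 and Gas2l3 had the largest differences among genes outside the cell cycle lists that had a RefSeq promoter and a level at or above the median. Uhrf1 was picked from the separated DNA replication genes with E2F letters in a promoter, so its E2F match was fixed by that choice. Capitals mark CHR letters TTTGAA, the letters CCAAT, and the E2F letters TTTGGCGC or TTTCGCGC, each searched on both strands. None of these patterns contains another. The windows lie at chr7:135716350-135716629, minus strand for Mki67, chr11:99024160-99024439, minus strand for Top2a, chr11:87108685-87108964, minus strand for Prr11, chr10:89443938-89444217, minus strand for Gas2l3 and chr17:56304063-56304342, plus strand for Uhrf1.
Mki67: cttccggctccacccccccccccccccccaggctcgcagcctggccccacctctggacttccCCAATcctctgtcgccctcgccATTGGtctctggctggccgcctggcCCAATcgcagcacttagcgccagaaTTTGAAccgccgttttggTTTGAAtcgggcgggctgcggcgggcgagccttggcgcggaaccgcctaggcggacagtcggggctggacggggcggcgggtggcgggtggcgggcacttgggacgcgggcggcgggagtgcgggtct
Top2a: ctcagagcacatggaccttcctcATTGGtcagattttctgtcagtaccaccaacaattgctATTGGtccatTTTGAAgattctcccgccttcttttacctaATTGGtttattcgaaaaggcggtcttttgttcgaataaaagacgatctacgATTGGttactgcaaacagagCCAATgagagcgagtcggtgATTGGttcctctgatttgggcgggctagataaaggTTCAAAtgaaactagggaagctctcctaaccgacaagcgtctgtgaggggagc
Prr11: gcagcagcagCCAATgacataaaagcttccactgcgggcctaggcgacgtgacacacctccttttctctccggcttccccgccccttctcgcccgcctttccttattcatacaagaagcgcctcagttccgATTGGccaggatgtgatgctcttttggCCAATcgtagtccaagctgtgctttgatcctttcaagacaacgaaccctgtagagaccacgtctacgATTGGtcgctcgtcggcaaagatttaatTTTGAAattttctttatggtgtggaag
Gas2l3: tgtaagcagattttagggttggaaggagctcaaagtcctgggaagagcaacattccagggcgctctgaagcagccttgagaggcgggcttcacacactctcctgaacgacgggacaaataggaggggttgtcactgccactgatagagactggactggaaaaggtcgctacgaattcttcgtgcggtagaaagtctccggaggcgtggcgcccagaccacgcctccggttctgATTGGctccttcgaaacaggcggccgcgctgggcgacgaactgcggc
Uhrf1: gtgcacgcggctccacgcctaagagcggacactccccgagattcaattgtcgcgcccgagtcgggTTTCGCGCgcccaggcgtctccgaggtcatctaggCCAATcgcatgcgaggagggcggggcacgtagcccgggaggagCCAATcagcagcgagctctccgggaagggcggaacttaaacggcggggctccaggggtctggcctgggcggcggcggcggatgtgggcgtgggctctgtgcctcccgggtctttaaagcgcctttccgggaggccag

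The Mki67 window held CHR letters beginning 116 and 98 bases before the start site, and 3 CCAAT boxes further upstream. In Top2a the CHR letters began 179 bases before the start and, on the other strand, 23 bases before it, with 6 CCAAT boxes. Prr11 had 4 CCAAT boxes and CHR letters beginning at base 4 of the transcript, counting the start site as base 1. Gas2l3 had 1 CCAAT box and no CHR match in this window, and Uhrf1 had 1 E2F match 185 bases before its start and 2 CCAAT boxes.

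Mki67, which encodes the Ki-67 protein of the mitotic chromosome surface (chr7:135689784-135716361 on GRCm38, GENCODE M21), had normalised counts of 4991, 6434 and 3643 in the cycling-high libraries. In the cycling-low libraries it had 160, 219, 122 and 121. The sides were far apart, with a ratio of means of 32.3. Top2a, the topoisomerase that untangles replicated chromosomes (chr11:98992943-99024189), had 4437, 5956 and 3868 against 209, 205, 122 and 114, a ratio of 29.2. Of the left-out libraries, LYT014 lay between the sides for both genes, at 1351 for Mki67 and 1314 for Top2a, whereas LYT013 lay below every other library, at 68.2 and 86.8.

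A gene was called separated when every cycling-high library lay above, or below, every cycling-low one and the means differed by at least 1 log2-like unit. In all, 17296 genes exceeded the lowest value in 3 or more of the 7 libraries. Of these, 326 (1.88%) were separated with the cycling-high side higher and 17 (0.0983%) with it lower. The median difference over all these genes was -0.01. With no requirement on size, 1776 genes (10.3%) had no overlap with the cycling-high side higher and 1548 (8.95%) with it lower. The excess of higher calls thus lay among the large differences, while smaller ones were more evenly split. On log2 of the normalised count plus 1, which flattens low counts less than the deposited scale, the counts were 699 higher and 219 lower. The lower count moved when 1 library was left out: it was 35 without LYT004, 43 without LYT008 and 53 without LYT006. A rule of no overlap is easier to pass with fewer libraries, so such a rise does not show that calls rest on 1 library. Of the 17 lower genes, 13, 15 and 17 kept their call in these settings, and 10 did without LYT005 or without LYT017. At the edge of the rule, Fam111a (1.01) and Bmp10 (-1.005) lay just inside, and Cacnb3 (0.997) and Tmem56 (-0.99) just outside.

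Cell cycle lists chose the libraries and are given only to show what the split holds. In the mitosis and spindle list 116 of 126 genes were separated, all of them higher on the cycling-high side, and the list had a median difference of 2.77. Its mean was 9.26, 9.62 and 9.25 in the cycling-high libraries and between 6.68 and 6.90 in the cycling-low ones. Among DNA replication genes 51 of 104 were separated, with a median of 0.93, or 0.55 over those at or above the median level. Uhrf1, a partner of the maintenance DNA methyltransferase, had 613, 726 and 347 normalised counts against 33.4, 34.9, 46.7 and 51.0. Of 41 replication histones 29 could be tested and none was separated. Without overlap, 13 of the 29 were higher on the cycling-high side, against 10.3% of all tested genes. Their list mean was 5.69 to 5.86 against 5.42 to 5.50, close to the lowest value of the scale on both sides. Mitosis and spindle transcripts made up 0.653%, 0.858% and 0.659% of all counts on the cycling-high side and 0.140% to 0.160% on the cycling-low side. In bulk RNA, fewer cells of a kind and less RNA per cell cannot be told apart.

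Promoter letters differed between these lists. CHR letters stood in 61.0% of the 100 RefSeq promoters of separated mitosis genes, in 18.4% of the 49 of separated replication genes and in 13.14% of the 15553 promoters of all tested genes, in windows reaching 50 bases past the start. E2F letters had the other order, with 20.4% of replication, 6.00% of mitosis and 1.31% of all promoters. CHR and CCAAT together stood in 48.0% of mitosis, 8.16% of replication and 5.32% of all promoters. RefSeq promoters were matched for 12309 of 17294 tested gene names. These shares describe letters in the windows, not binding.

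Of the 326 higher genes, 167 were in the cell cycle lists and 159 were not. Among the 159, 68 had a level at or above the median of all tested genes. Several of these 68 are also known from dividing cells: the spindle checkpoint gene Mad2l1, the nuclear import receptor Kpna2, the lamin Lmnb2, the cytoskeletal linker Gas2l3, and Prr11. CHR letters stood in 20.4% of the 54 promoters of the 68 genes and CCAAT letters in 51.9%, against 37.6% for CCAAT over all tested genes. No E2F match was found in these 54 windows. Prr11 had normalised counts of 756, 1112 and 737 against 49.6, 55.6, 35.9 and 51.0, and the sides were 18.1-fold apart. Gas2l3 had 893, 796 and 711 against 128, 63.1, 69.2 and 51.0, a ratio of 10.3.

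Outside the cell cycle lists, fibrillar matrix had the largest number of separated genes. Col1a1, Col1a2, Col3a1, Col12a1, Vcan, Col5a2, Col5a3 and Col6a3 were separated and higher, 8 of 33 genes, against 1.88% of all tested genes. The list median was 0.47. Type I collagen is the main fibre of scar tissue. Its first chain gene, Col1a1 (chr11:94936224-94953042), had 168118, 159395 and 89565 normalised counts on the cycling-high side and 43449, 33002, 21307 and 23643 on the cycling-low side. The lowest cycling-high library, LYT008, was still above the highest cycling-low library, LYT006, and the ratio of means was 4.58. Both LYT008 and LYT006 carry the YAP-deleted label. Col1a2 and Col3a1, the other abundant fibril chains, were 2.57-fold and 2.55-fold higher, with Col3a1 at 371690, 392630 and 301946 against 162590, 138622, 114517 and 141736. Col12a1, a fibril-associated collagen, spread more widely, with 2562, 1610 and 540 against 430, 450, 194 and 295.

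The list did not move as one. Fn1 (fibronectin, -0.02), Postn (periostin, 0.08) and Bgn (biglycan, 0.08) were level between the sides. Dcn (decorin, -0.48) and Col14a1 (-0.53) were lower on the cycling-high side without reaching 1 unit. Those 2 genes show the same list holding members on either side of 0.

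Lox, the enzyme that starts collagen cross-linking, had 3758, 3722 and 1447 normalised counts against 563, 738, 377 and 625, a ratio of 5.17. It was the only separated gene of 30 in the collagen processing list, close to the share of 1.88% over all tested genes, and the list median was 0.20. Fmod, a small proteoglycan that binds collagen fibrils, had 1507, 1280 and 444 against 214, 305, 102 and 180. For both genes the YAP-deleted library LYT008 was the lowest of the cycling-high side. Basement membrane genes were separated for Col18a1 (2.75-fold) and Lama4 (2.45-fold), 2 of 16, and among matrix proteases and their inhibitors for Mmp19 (2.57-fold), Plau (3.79-fold) and Adamts4 (2.26-fold), 3 of 24, against the same 1.88%. Without LYT008 the median of the protease list was 0.35 in place of 0.23. Timp1, the collagenase inhibitor raised in fibrosis, had 619, 703 and 495 against 326, 314, 310 and 226, which did not overlap but differed by 0.91.

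Acta2, which encodes the smooth muscle actin of myofibroblasts (chr19:34241090-34255590), had 4414, 4900 and 2181 normalised counts against 498, 789, 430 and 1679. Control LYT017 was well above the other cycling-low libraries, and the gap to LYT008 was narrow. The ratio of means was 4.51. Vim, the intermediate filament vimentin, was tightly grouped on the cycling-high side with 25692, 26676 and 26966, against 15867, 10430, 9600 and 10528. Acta2 and Vim were the only separated genes of 30 contractile and SRF target genes, against 1.88% of all tested genes, with a list median of 0.38. Tagln and Tpm2 (both 0.68) and Myl9 (0.65) were higher by less than 1 unit, and Vcl (-0.07) and Mylk (0.03) were level.

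Among secreted and signalling genes, Vegfd, a ligand for lymphatic and vascular endothelial receptors, had 605, 692 and 570 against 115, 95.2, 60.9 and 79.2, a ratio of 7.10. The sides were distinct irrespective of label. Vegfd was the only separated gene of 37 in the PDGF and growth factor list, whose median was -0.04, and the PDGF receptor gene Pdgfrb differed by 0.13. A single call in a list of about this size is close to the share of 1.88% over all tested genes. Ltbp2, a matrix protein of the latent TGF-beta binding family, had 8145, 6118 and 4036 against 3267, 2036, 1359 and 1150, and was the only separated gene of 35 in the TGF-beta and BMP list (median 0.00). Serpina3n, a secreted protease inhibitor, had 1601, 1946 and 2199 against 639, 485, 433 and 153. Myof was the only separated gene of 29 YAP and TAZ targets, whose median was -0.01. The classic targets Ccn1 (0.38) and Ccn2 (-0.38) overlapped between the sides. Lgals1, the lectin galectin-1, named after its values were seen, had 5347, 7896 and 5591 against 2462, 1930, 1679 and 2218.

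**Figure D1:**
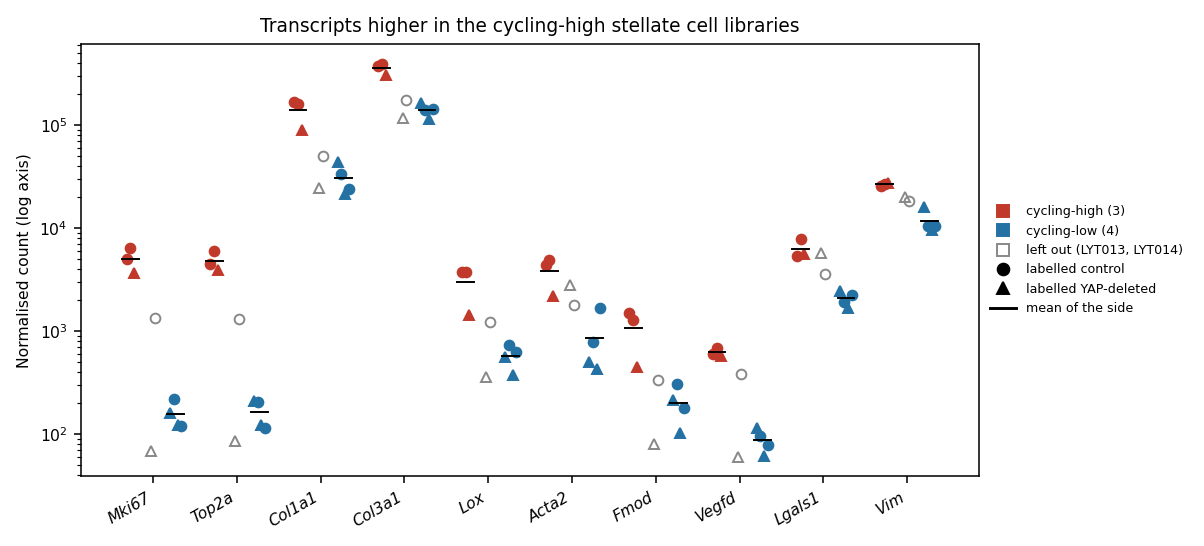
Normalised counts on a log axis for 10 genes, with 1 symbol per library and black lines for the mean of each side; circles are labelled control, triangles YAP-deleted, and open grey symbols the left-out libraries. Red symbols stand above all blue ones for each gene, by the widest margin for Mki67 and Top2a, and LYT014 lies between the sides for all 10 genes.

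Of the 33 genes for CDK inhibitors, senescence and p53 targets, Cdkn2c, an INK4-type inhibitor, was the only separated one, with 1327, 1787 and 1549 normalised counts against 439, 375, 411 and 398. Cdkn2c was thus higher in the cycling libraries, by 3.83-fold, but 1 of 33 is close to the share of 1.88% over all tested genes. Cdkn1c, an inhibitor of the CIP/KIP type, ran the other way, with 293, 164 and 208 against 364, 337, 400 and 445 (a difference of -0.69). Cdkn1a (0.40) and the cyclin gene Ccnd1 (0.12) overlapped between the sides, while Cdkn1b (-0.12) did not. Myc, with 2335, 1658 and 2518 against 2449, 3091, 2414 and 2357, also overlapped.

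Lists for growth and metabolism contained no separated gene. Medians were 0.01 for 79 cytosolic ribosomal proteins, -0.16 for 43 ribosome biogenesis genes, -0.01 for 74 oxidative phosphorylation genes and 0.03 for 31 proteasome genes. The medians were 0.20 for 24 glycolysis and hypoxia genes, 0.04 for 30 cholesterol and fatty acid synthesis genes and -0.27 for 28 ER folding genes. Immediate early and dissociation genes (-0.12, 40 genes), inflammatory cytokines and chemokines (-0.18, 35 genes) and interferon-stimulated genes (-0.25, 37 genes) likewise had no separated member. Within codes 4 to 8 the ER folding median was -0.07 and the interferon median 0.01. Without LYT004 the ER folding median was -0.11 and that of ribosome biogenesis -0.10. The immediate early median was 0.03 without LYT005, and the inflammatory median -0.28 without LYT008 and -0.27 without LYT017. The mean of the 13 mitochondrially encoded genes was 13.62 to 13.65 on the cycling-high side and 13.16 to 13.48 on the cycling-low side, and none was separated. The part of library preparation in these differences was not tested.

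Of the 17 lower genes, 9 had a level at or above the median: Hhip, Fcna, Dbp, Papln, Ehd3, Rassf4, Epor, Nrxn3 and Bmp10. Hhip, a membrane inhibitor of hedgehog ligands (chr8:79965851-80058006), had 1973, 1850 and 2044 normalised counts on the cycling-high side and 5339, 5793, 7006 and 4814 on the cycling-low side. The cycling-high libraries were almost equal, and the cycling-low mean was 2.93-fold higher. Bmp10, a ligand of the BMP family (chr6:87428994-87437677), had 6908, 6580 and 8588 against 13886, 15394, 14125 and 15580. Fcna, encoding ficolin-A, a lectin of innate immunity, had 4632, 6456 and 12196 against 22864, 12354, 23431 and 13452, where YAP-deleted LYT008 came close to control LYT015. Dbp, a transcription factor that follows the circadian clock, had 353, 145 and 172 against 897, 473, 393 and 669, and the labels do not give the hour of isolation. Papln, an extracellular matrix glycoprotein, had 2194, 1592 and 1885 against 4996, 4513, 4433 and 3927.

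Hhip and Fcna also belong to the quiescent stellate cell list, in which 2 of 32 genes were separated and 26 were lower on the cycling-high side. Over all tested genes 0.0983% were separated and lower, and 9087 of 17296 were lower by any amount. The list median was -0.39, and its mean ran from 13.80 to 14.06 on the cycling-high side and from 14.23 to 14.33 on the cycling-low side. Reln, encoding the secreted glycoprotein reelin, had 138401, 123174 and 121539 against 191518, 196423, 211506 and 192911, with no overlap and a difference of -0.63. Ecm1 (-0.95), Vipr1 (-0.98), Colec10 (-0.86) and Colec11 (-0.77) were lower by a similar margin. Cxcl12, the chemokine for CXCR4, had 80492, 75973 and 88168 against 132062, 140087, 146967 and 143017, without overlap and with a difference of -0.79.

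Other genes that define the sorted cell were level. Lrat, the enzyme that esterifies retinol for storage, had 44736, 69555 and 47565 normalised counts against 52011, 44553, 49699 and 65124 (0.02). Des, the filament protein desmin, differed by 0.01. The 28 tested retinoid handling genes had a median of -0.11 and no separated member. Defining markers of the sorted stellate cell were thus present on both sides.

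**Figure D2:**
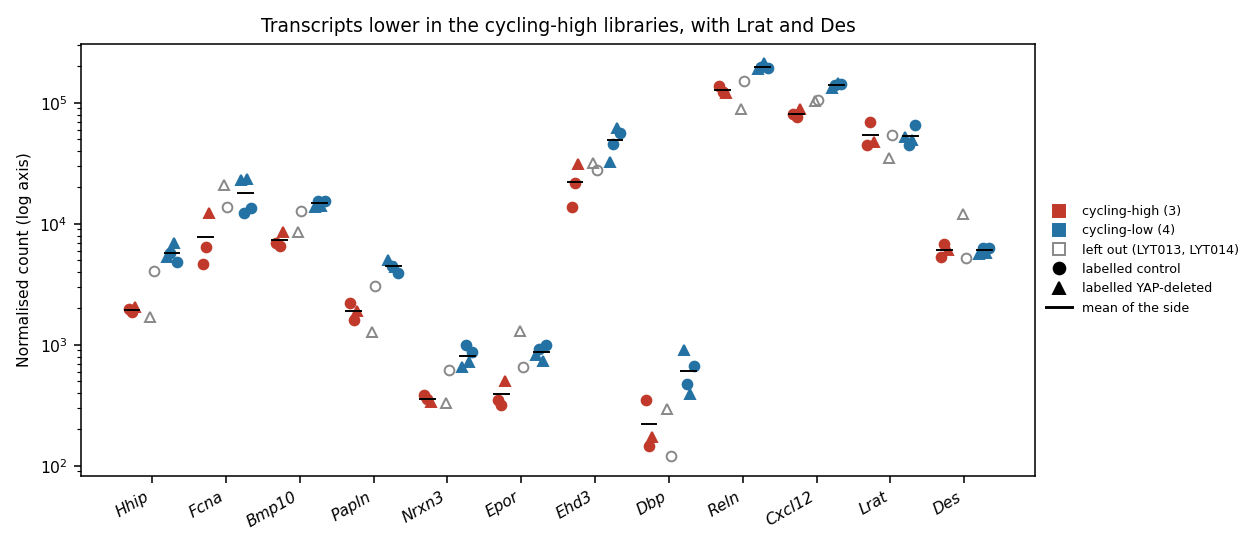
Normalised counts on a log axis for 12 genes, with 1 symbol per library, in the same colours and shapes as the plot of higher genes. Red symbols stand below all blue ones from Hhip to Cxcl12, while Lrat and Des overlap between the sides.

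Macrophage and endothelial markers were mostly lower on the cycling-high side. Over all tested genes 9087 of 17296 were lower on the cycling-high side and 0.0983% were separated and lower. In the macrophage and Kupffer list 28 of 29 genes were lower and Cd5l was separated, with a median of -0.50. The summed normalised count of that list was 1098 to 1864 against 1941 to 3905. Kupffer cell marker Clec4f had 14.9, 4.91 and 25.5 against 29.98, 47.1, 118 and 57.8. In the liver endothelial list 21 of 24 genes were lower and Dnase1l3 was separated, with a median of -0.55 and a sum of 27672 to 35411 against 32562 to 39188. Of the 8 lower genes below the median level, named after their values were seen, Adgrf5, Aqp1, Dnase1l3 and Ptprb are well known from endothelium and Cd5l from macrophages, and the others were Col6a4, Galnt14 and Slc15a2. Within codes 4 to 8 the macrophage median was -0.18 and the endothelial median -0.48, and over genes at or above the median level the endothelial median was -0.11. The part of these cells in the lower genes was not tested.

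The lymphocyte and the neutrophil markers each summed to at most 114 normalised counts in any of the 7 libraries, and Cd2, Gzma, Gzmb, Ncr1, Camp and Ly6g were at 0 in all of them. Hepatocyte markers had a median of -0.22 (-0.01 within codes 4 to 8 and -0.14 without LYT004) and sums of 837 to 1518 against 972 to 1703. Portal fibroblast markers had a median of 0.40 (0.14 within codes 4 to 8 and 0.22 without LYT017), but their sums overlapped, at 19246 to 23922 against 12135 to 24981. Mesothelial markers had a median of -0.38 (-0.02 within codes 4 to 8 and -0.21 without LYT017) and sums of 746 to 1422 against 530 to 1490. Cholangiocyte and vascular mural cell markers, with medians of -0.09 and -0.05, had no separated member. In the erythroid list 3 genes were tested and Epor was separated and lower, against 0.0983% of all tested genes.

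**Figure D3:**
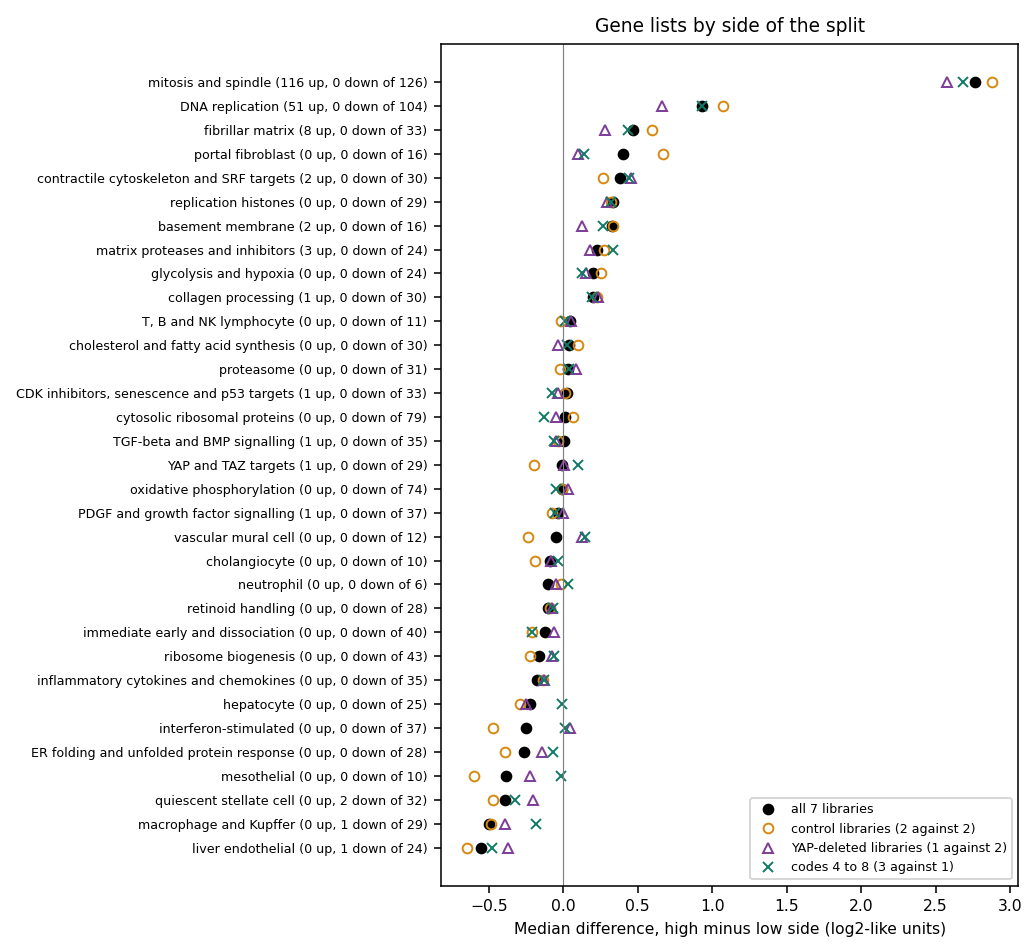
Median difference between the sides for each gene list with at least 5 tested genes, in log2-like units; filled circles use all 7 libraries, open circles control libraries, triangles YAP-deleted libraries and crosses codes 4 to 8. Mitosis (2.77) and DNA replication (0.93) stand apart at the top, fibrillar matrix (0.47) follows, and quiescent (-0.39), macrophage (-0.50) and endothelial (-0.55) lists lie at the bottom.

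The split could be described within each label, in contrasts that share no library. Between the control libraries, LYT004 and LYT005 against LYT015 and LYT017, 423 genes (2.45%) were higher and 86 (0.497%) lower by the same rule. Between the YAP-deleted libraries, LYT008 against LYT006 and LYT016, 269 (1.56%) were higher and 42 (0.243%) lower. The higher sets shared 237 genes, 56.0% of the control set and 88.1% of the YAP-deleted set. Outside the cell cycle lists and at or above the median level they shared 34 genes, 29.3% of 116 in controls and 81.0% of 42 in YAP-deleted libraries. The lower sets shared 9 genes, 10.5% and 21.4%.

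For several named matrix genes the difference between the sides was smaller in the YAP-deleted libraries than in the controls. Col1a1 differed by 2.55 in controls and 1.56 in YAP-deleted libraries, Col12a1 by 2.30 and 0.77, Fmod by 2.30 and 1.28, Lox by 2.36 and 1.53, and Ltbp2 by 2.16 and 0.91. Vegfd (2.31 and 2.17), Hhip (-1.44 and -1.55), Prr11 (3.20 and 3.08) and Mki67 (4.69 and 4.23) were closer. Col8a1 (0.42 and 1.62) and Fbln1 (0.66 and 1.07) had the reverse order. Whether the labels differ in the size of the split was not tested, since the YAP-deleted contrast has 1 library on its cycling-high side. The medians of the fibrillar matrix list were 0.59 in controls and 0.28 in YAP-deleted libraries, and those of the quiescent list were -0.47 and -0.21.

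**Figure D4:**
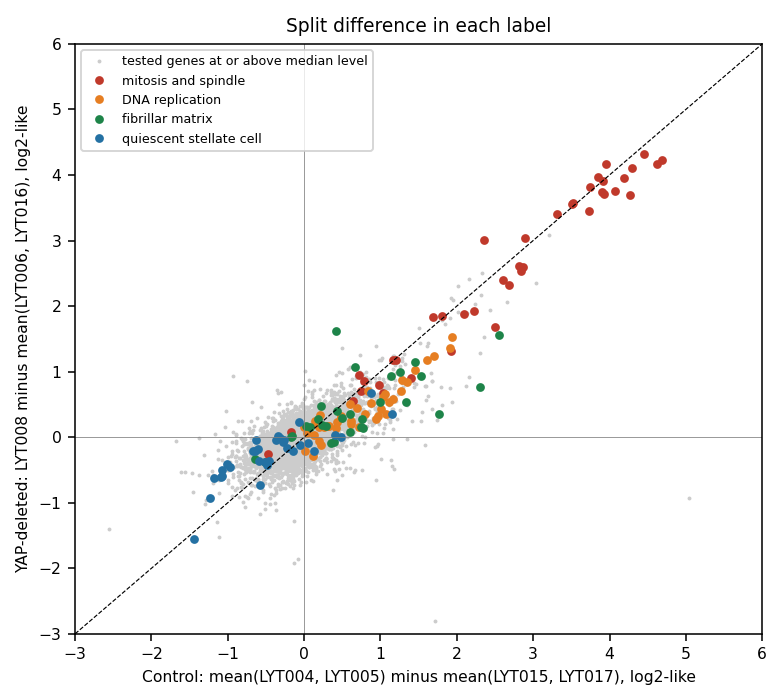
Difference between the sides in control libraries (horizontal) and YAP-deleted libraries (vertical), in log2-like units, with 1 point per tested gene at or above the median level and the line of equality dashed. Mitosis genes lie far up along the line in both labels, fibrillar matrix genes lie mostly right of 0 and often below the line, and quiescent genes lie mostly left of 0.

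Library code was also compared. When codes 4 to 8 were set against codes 15 to 17, 161 genes (0.931%) were higher and 32 (0.185%) lower, of which 134 and 7 were also separated by cycling. Of the cycling-low libraries, LYT006 alone has a code in the range of the cycling-high ones. It is labelled YAP-deleted, while the sets it is compared with are mostly controls, so label is mixed into these differences. Yap1 itself differed by 1.39 between the cycling-high libraries and LYT006, and by -1.59 between LYT006 and the other cycling-low ones. Mki67 in LYT006 lay only 0.08 above the mean of LYT015, LYT016 and LYT017. Ltbp2 lay 1.12, Col1a1 0.77 and Vim 0.64 above it, and Lox 0.01. In normalised counts Lox was 563 in LYT006 and 377 in LYT016, the other YAP-deleted cycling-low library. Within codes 4 to 8 the 3 cycling-high libraries exceeded LYT006 by 1.62 for Col1a1, 2.16 for Lox, 2.72 for Acta2 and 0.83 for Ltbp2. For Ltbp2, Col1a1 and Vim, LYT006 thus lay towards the cycling-high side. So it did for Serpina3n (0.86), Mmp19 (0.73), Gas2l3 (0.69), Rassf4 (-0.88) and Ehd3 (-0.76), among others. For Acta2 (-0.69) and Lama4 (-0.70) it lay away from that side. With 1 cycling-low library in the range, code and cycling cannot be told apart for these or other genes.

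The left-out library LYT014, which did not choose the split genes, lay above all 4 cycling-low libraries for 48 of the 68 higher genes outside the cell cycle lists at or above the median level (70.6%), against 19.6% of all genes at that level. It lay between the sides for 43 of them. LYT014 also lay between the sides for Mki67 and Top2a, and the 68 hold genes known from dividing cells. Its share is thus not independent of the cycling that made the split. LYT013 lay above all 4 for 19 of the 68 (27.9%) and below all 4 for 24 (35.3%). For the 9 lower genes at that level LYT014 lay below all 4 cycling-low libraries in 8 (88.9%), against 27.1% of all genes at that level, and LYT013 did so in 7. Col1a1 in LYT014 was 50001, just above the highest cycling-low library, and Vegfd was 381. Over all genes at that level LYT013 lay above all cycling-low libraries for 38.7% and below them for 42.3%, so it stood apart from them on most genes.

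Label, which did not form the sides but through Yap1 decided which libraries were left out, was tested with the split as a term in limma. At an adjusted p of 0.05, the YAP-deleted label had 10 genes (0.0578%) higher and 24 (0.139%) lower, among 17296 tested. Without the split term 3 were higher and 9 lower, and all 12 of these were also called with it. Over the separated genes the median standard error of the label difference was 0.146 with the term and 0.565 without it, and these genes were chosen by the split itself. Yap1 is counted among the 24 and the 9 lower genes, but it chose the left-out libraries and is given as a check. It had 2902, 2915, 3653 and 3551 normalised counts in controls LYT004, LYT005, LYT015 and LYT017, against 642, 648 and 645 in YAP-deleted LYT006, LYT008 and LYT016.

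The counts of label calls rest on single libraries. Without LYT008 or without LYT017, 5 genes were higher and 9 lower. They were 6 and 24 without LYT004, 8 and 11 without LYT015, and 7 and 12 without LYT016. Without a mean-variance trend in the moderation they were 5 and 15. At an unadjusted p under 0.05, 1859 genes passed.

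Genes called at every setting had labels apart on both sides of the split. Tnc, the matrix glycoprotein tenascin-C, had 7713, 7798, 6672 and 7025 normalised counts in controls and 3169, 3856 and 3174 in YAP-deleted libraries, and fell by 1.06 ± 0.08 (SE, limma adjusted p = 0.000551). Ogn, the small proteoglycan osteoglycin, had 572, 575, 510 and 834 against 145, 119 and 95.9, and fell by 1.96 ± 0.16 (limma adjusted p = 0.000961). Tmtc2, an ER membrane protein, had 436, 465, 387 and 402 against 6646, 6260 and 5643. This was the largest label difference called, 3.71 ± 0.09 (limma adjusted p = 2.63e-08). In the left-out libraries, whose Yap1 went against the label, Tmtc2 and Ogn did so too: LYT013, labelled YAP-deleted, had 150 for Tmtc2 and 460 for Ogn, and LYT014, labelled control, had 7028 and 136. Tnc did not: 4014 in LYT013 and 4629 in LYT014 both lay between the labels. Nos1, also called at every setting, lay between them as well, at 93.3 and 78.6, while Pkp2 and Rbm46 went against the label. The p-values by label are therefore conditional on leaving out these libraries by their Yap1 level, and whether the 2 were exchanged was not tested.

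Other genes passed only once cycling was modelled. Abcb11, the bile salt export pump known from hepatocytes, had 178, 155, 444 and 539 normalised counts in controls and 1028, 513 and 1175 in YAP-deleted libraries. Within each side the YAP-deleted libraries were higher, while LYT008 (513) lay below control LYT017 (539). The label difference was 1.19 ± 0.11 (limma adjusted p = 0.00162) with the split term and had an adjusted p of 0.592 without it, and it also missed the threshold with library code in place of the split. Cdh3, P-cadherin, had 432, 325, 130 and 133 against 28.8, 115 and 35.9, and fell by 1.25 ± 0.12 (limma adjusted p = 0.00257). Here LYT008 was the highest of its label and the cycling-high controls were the highest of all, whereas for Abcb11 they were the lowest.

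Fcna and Atp2b4 were called in both senses. Fcna, lower on the cycling-high side, was higher in YAP-deleted libraries by 0.96 ± 0.13 (limma adjusted p = 0.0257). Atp2b4, a plasma membrane calcium pump, was higher on the cycling-high side and fell by 0.57 ± 0.08 with the YAP-deleted label (limma adjusted p = 0.0295), with 1339, 1372, 653 and 638 normalised counts against 375, 958 and 412. Fcna kept its call in 6 of 13 alternative settings and Atp2b4 in 4 of 13. Acta2 (-1.16 ± 0.20, limma adjusted p = 0.0707), Lox (-0.84 ± 0.18, adjusted p = 0.134) and Col1a1 (-0.27 ± 0.28, adjusted p = 0.783) did not pass. Acta2 passed only without LYT015, at -1.40, and Lox only without LYT006, at -1.05.

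Of the lists, fibrillar matrix had 2 of 33 genes lower by label (Tnc and Ogn), against 0.139% of all tested genes. The contractile list had 1 of 30 lower (Tpm1), basement membrane 1 of 16 (Lama2), PDGF and growth factors 1 of 37 (Igf1r) and inflammatory genes 1 of 35 (Cxcl14). Ackr4 was the 1 inflammatory gene that was higher and Fcna the 1 of 32 in the quiescent list, against 0.0578% of all tested genes. Of the single calls, Tpm1 and Cxcl14 were kept in 4 of 13 alternative settings, Igf1r in 5, Lama2 and Fcna in 6 and Ackr4 in 12.

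**Figure D5:**
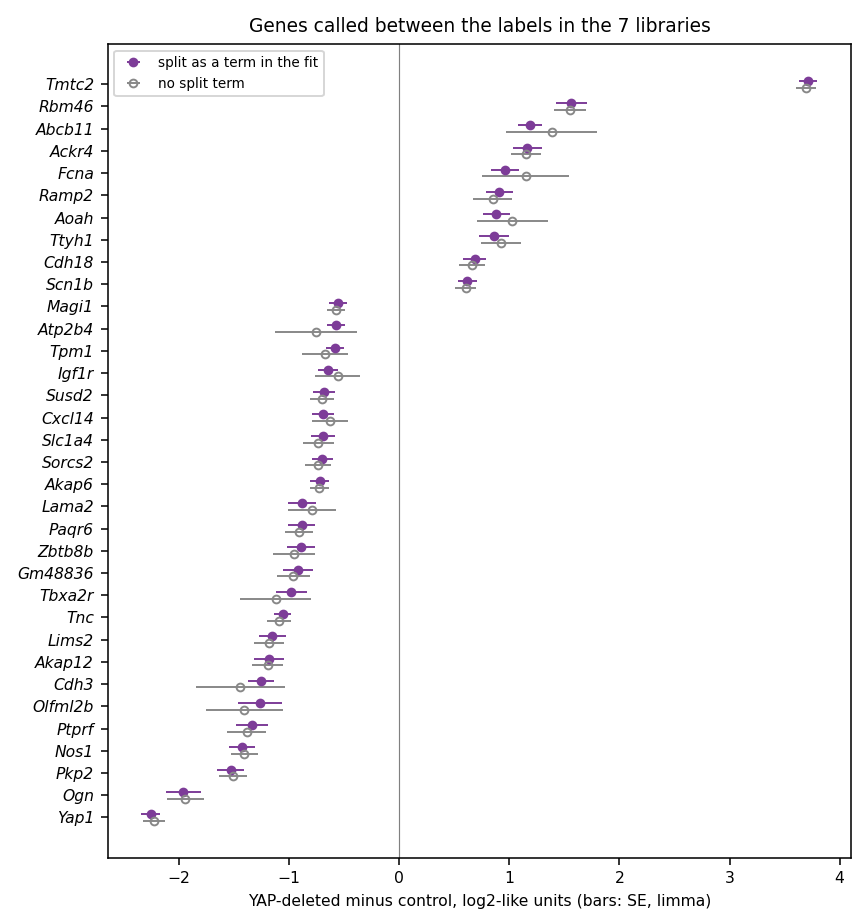
YAP-deleted minus control difference for the 34 called genes, in log2-like units with bars for the standard error; filled symbols have the split as a term in the fit and open symbols do not. The estimates lie close together, and the bars of Abcb11, Fcna, Atp2b4 and Cdh3 are several times wider without the term.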

How the data were processed

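Bulk RNA sequencing libraries of sorted mouse hepatic stellate cells were used as deposited. The authors deposited 35024 rows of log2-like, variance-stabilised values, 1 per gene name and library, and no header or label tells how these were made. The tools named in the submitters' processing notes are bcl2fastq 2.20, kallisto 0.44.0 and sleuth, with builds GRCm38, mm10 and GRCh38 in no stated role. Inverting the inverse hyperbolic sine form of the values gave whole counts within 0.1 for 100.0% of values in every library. Group and library code came from the sample titles. The column for LYT013 was headed LYT013.1.

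The 17296 genes that exceeded the lowest value in 3 or more of 7 libraries were kept. Sides of the split were described only. The label was tested with limma 3.58.1 in R 4.3.3 (split and label as terms, trend, two-sided, Benjamini-Hochberg at 0.05), after a check on simulated data. Named genes were Mki67, Top2a and Yap1, up to 15 per direction with the largest difference outside the 3 cell cycle lists at or above the median level, up to 4 separated members per list (or the 2 with the highest level), a fixed set, and up to 10 per direction by label; members of lists given beside these were chosen after their values were seen. The members and all lists were chosen with earlier results of these data known. Positions are from GENCODE M21, and promoters from RefSeq on GRCm38.p6. Alternatives changed the scale, scaling, filter, threshold, libraries and covariate.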

Additional observations from a re-analysis of the deposited data

Results flagged for a closer look

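In 7 of 160 groups of 4 libraries examined, 1 library stood far from the rest; chance flags about 1 in 20 groups. Among the cycling-low libraries, LYT016 had the lowest mean of the PDGF list (9.14, others 9.24 to 9.25), LYT006 the lowest of the ER folding list (10.54, others 10.84 to 10.86), and LYT017 the highest of the endothelial list (8.18, others 7.85 to 7.89) and the lowest of the cholangiocyte list (5.54, others 5.70 to 5.72). LYT017 was also low for Timp1 (8.15, others 8.53 to 8.59), and LYT015 high for Myc (11.62, others 11.24 to 11.29). Among the controls, LYT015 had the highest mean of the inflammatory list (8.76, others 8.32 to 8.36). All are log2-like values.

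For 4 named genes every cycling-high library moved one way against the cycling-low ones in controls and the other way in YAP-deleted libraries: Myc (-0.44 and 0.05), Yap1 (-0.30 and 0.01), Ifitm3 (-0.33 and 0.04) and Ncl (0.03 and -0.04). The differences between the labels were not tested, and those in YAP-deleted libraries are at most 0.05 in size.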

How the results depend on the processing

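The count of higher genes (326) was 699 on log2 of the normalised count plus 1, 112 at or above the median level and 751 for a difference of at least 0.5; each set on the other scale and at the lower threshold held all 326. The count of lower genes (17) was 219, 9 and 269 in the same settings, 86 in controls only and 40 in codes 4 to 8 only; codes 4 to 8 kept the call of 6 of the 17 and of 272 of the 326 higher genes. Leaving out 1 library gave 299 to 388 higher and 13 to 53 lower genes. The lower count was 35 without LYT004, 43 without LYT008 and 53 without LYT006, and no overlap is easier to meet with fewer libraries. Equal library medians gave 330 and 13. By label, 10 higher and 24 lower genes became 3 and 9 with no covariate and 5 and 15 with no trend, with 13 lower at or above the median level. Leaving out 1 library gave 5 to 10 higher and 9 to 24 lower genes. Limma voom on recovered counts gave 10 and 23. Of 401 list medians recomputed under the alternatives, 347 moved by less than the spread between libraries and 53 by more, and the interferon-stimulated list reversed in codes 4 to 8, at 0.012181 against -0.25. No paired analysis was possible because the groups share no replicate numbers: the labels give library codes. The cause of these shifts was not tested. With 3 against 4 libraries chosen by their own values, the split counts carry no error rate.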
